A study of Mus musculus with 4 samples.

Results

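The genes described here are 41 mouse genes of DNA replication and of the E2F programme, a list of named genes in a table of 21774 protein-coding genes. Each gene was examined at its RefSeq position on mm10, and every called IgD peak that overlapped the gene body or the 10000 bp on either side was taken. All 41 symbols matched the table. The peaks came from chromatin immunoprecipitation followed by sequencing (ChIP-seq) of pro-B cells, which were sorted from the bone marrow of wild-type mice as B220 positive, CD43 positive and IgM negative cells. There were 4 libraries: 2 made with an antibody against mouse IgD and 2 with mouse IgG, the isotype control. All were wild type and none is described as treated. The labels name no strain, age or number of pooled mice. The authors called peaks in each IgD library against the equally numbered IgG library, and the resulting 2 lists are referred to as pair 1 and pair 2. The title of the series links nuclear IgD to E2F3 and to proliferation of pro-B cells. Peak lists hold no expression values, so the cell type could not be checked against its markers.

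Before DNA is copied, the origin recognition complex, Cdc6 and Cdt1 load the ring-shaped MCM helicase on chromatin, and geminin blocks repeated loading. Cdc45 and the GINS complex then activate the helicase, primase and the DNA polymerases copy the strands, and a sliding clamp with its loader keeps the polymerases in place. Many of these genes are targets of the E2F transcription factors, which switch them on as cells leave G1 with the help of cyclin E. Precursors of B cells divide repeatedly in the bone marrow and need this machinery to do so.

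Pair 1 held 11375 peaks and pair 2 held 40628. The fold enrichment of a peak is the authors' value and sets the IgD signal at the summit against the local background. Each peak's fold and p-value together gave the fragments behind it. The commonest background was 2.76 fragments in pair 1 and 2.70 in pair 2. At that background the weakest called summit had 9 fragments in pair 1 and 8 in pair 2. Brackets after fragment numbers hold the 95% exact Poisson interval, which measures counting error alone. With 1 list per pair, no spread between animals could be measured and no test between IgD and IgG was made beyond the authors' own.

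In pair 2, 23 of the 41 genes had a peak (56.1%, 95% Wilson interval 41.0 to 70.1), where 49.8% of all protein-coding genes had one. In pair 1, 2 of 41 had a peak (4.88%, Wilson interval 1.35 to 16.1), where the share of all genes was 8.64%. No gene had a peak in both pairs (0 of 41, Wilson interval up to 8.57%), where 6.3% of all genes did. The 2 genes with a pair 1 peak were Uhrf1 and Rrm2, and neither was among the 23 of pair 2. These Wilson intervals treat genes as independent draws.

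Long genes offer more sequence to peaks, so each member was set beside other protein-coding genes of like length, no shorter than 0.8 times its length and no longer than the inverse of that ratio. Averaged over the members, 48.1% of such genes had a peak in pair 2, which corresponds to 19.7 genes of 41 beside the 23 found. In pair 1 the average was 7.34%, or 3.01 genes beside the 2 found. The members were of ordinary length, with a median of 16234 bp against 17219 bp for all protein-coding genes. Those with a pair 2 peak had a median length of 22068 bp, and the 16 with no peak in either list had a median of 14927 bp. All 6 members of 40 to 80 kb and both longer ones had a pair 2 peak, where 65.2% and 87.8% of other genes of those lengths had one. Of the 10 members of 20 to 40 kb, 4 had a peak, beside 51.4% of other genes.

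**Figure D1:**
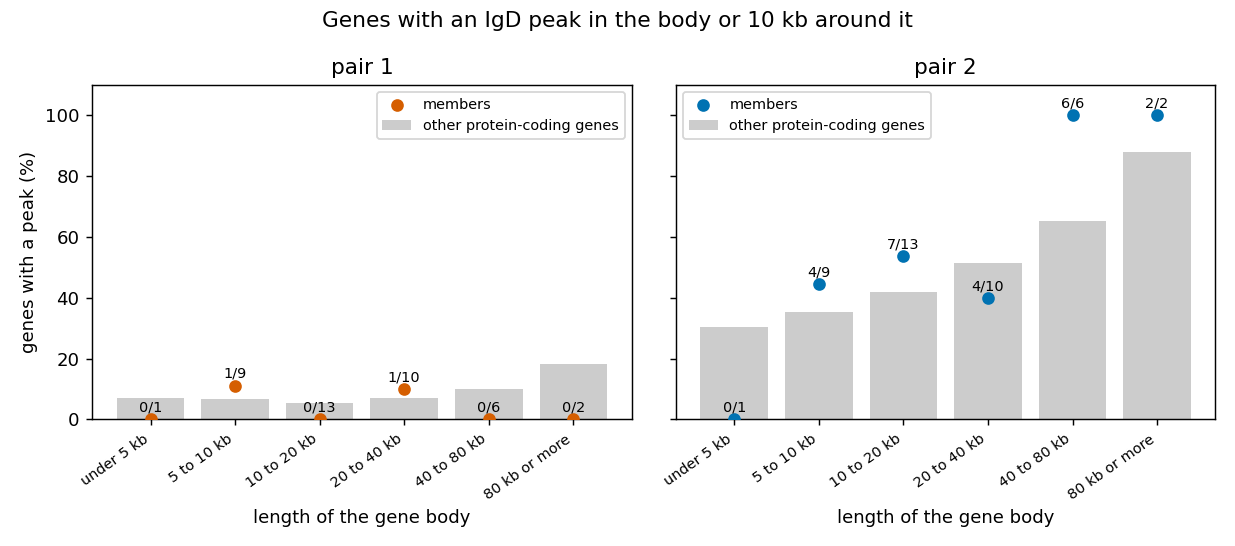
Percentage of genes with a peak in the body or 10 kb around it (y axis), by length of the gene body (x axis), in pair 1 (left) and pair 2 (right). Bars are all other protein-coding genes and points are the members, with the number called over the number in the class; in pair 2 the bars rise from 30.5% under 5 kb to 87.8% at 80 kb or more, and the members lie above the bar in 4 of 6 classes.

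Among the members with a listed transcription start, Uhrf1 had the summit closest to one. It encodes a protein that binds hemimethylated DNA and brings the maintenance methylase Dnmt1 to newly copied strands (chr17:56303337-56323486, plus strand). The pair 1 peak spanned chr17:56303383-56304034, with a fold of 2.96, a -log10 q of 3.14 and 18 fragments at the summit (10.7 to 28.4). The local background there solved to 5.42 fragments, above the commonest value of 2.76. RefSeq promoters list 2 starts for the gene. The summit at 56304024 lay 687 bp after the first and 289 bp before the second. The nearest pair 2 peak was 82.8 kb from that summit.

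E2F proteins bind short GC-rich sequences, and such matches were looked for in RefSeq promoters (GRCm38.p6), from 250 bases before to 50 bases after each start. The letters searched were TTTCGCGC and TTTGGCGC on both strands; the reverse complements of these run into one another, so that 1 stretch can match more than once. Of 34 members with a listed promoter, 11 held a match (32.4%), against 1.21% of 17492 protein-coding genes. Known E2F targets were chosen for this list, so the share is not independent of the choice of members. The 11 were Cdt1, Dnmt1, Lig1, Mcm3, Mcm5, Mcm6, Mcm7, Orc1, Pola1, Rfc3 and Uhrf1. In 7 of them a match lay before the start, at 8 places. These are shown 5′ to 3′ on the strand of the gene, with the matching bases in capitals, because they can be set beside the nearest IgD peaks.
Uhrf1, chr17:56304117-56304146, plus strand: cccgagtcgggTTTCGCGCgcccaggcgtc
Rfc3, chr5:151651209-151651229, minus strand: acgtcgcacgcTTTCGCGCtc
Orc1, chr4:108579416-108579445, plus strand: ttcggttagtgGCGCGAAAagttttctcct
Dnmt1, chr9:20952824-20952853, minus strand: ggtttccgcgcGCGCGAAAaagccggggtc
Mcm5, chr8:75109347-75109376, plus strand: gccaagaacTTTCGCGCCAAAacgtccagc
Mcm6, chr1:128359734-128359763, minus strand: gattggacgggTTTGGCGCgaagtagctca
Mcm6, chr1:128359795-128359824, minus strand: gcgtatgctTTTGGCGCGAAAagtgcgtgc
Pola1, chrX:93632275-93632304, minus strand: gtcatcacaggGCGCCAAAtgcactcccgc

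No called peak of either list covered any of these 8 stretches. Peaks near a start were uncommon in general. Over all genes with a listed start, 1.01% in pair 1 and 5.05% in pair 2 had a summit within 1000 bp of it. The Uhrf1 match came closest, with its middle 97 bp from the edge of the pair 1 peak. At Rfc3 the nearest pair 2 peak began 2.03 kb away. At Dnmt1, Orc1, Mcm6, Mcm5 and Pola1 the nearest pair 2 peak was 23.3, 32.4, 54.5, 92.4 and 185 kb away. The median distance from a start to the nearest pair 2 summit was 18.6 kb over the 34 members and 23.5 kb over all genes with a listed start. A match is a run of letters and not a measured binding site. Matches were held by 6 of 20 members with a peak in either list and 5 of 14 without one. The CCAAT box, the letters CCAAT on either strand, was found in 22 of 34 members (64.7%) and 42.3% of all protein-coding genes. The promoter windows of the members had a median of 23 CG dinucleotides in 300 bases, against 13 for all.

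Distances to a transcription start could be given for the 34 members with a listed start, and not for the other 7. In pair 2, 0 of the 34 had a summit within 1000 bp of it (Wilson interval up to 10.2%), beside 5.05% of all genes with a listed start. Pair 1 had 1 of 34, Uhrf1, beside 1.01%. Within 3000 bp, pair 2 had 6 of 34 (17.6%, Wilson interval 8.35 to 33.5), beside 10.8%. Pair 1 still had 1, beside 2.06%. Both background shares of pair 2 lay within the members' intervals. Of the members without a listed start, Prim2 and Pole had pair 2 summits 46 and 335 bp from an end of the gene that may or may not be its start. The 6 were Msh6, Ccne1, Chaf1b, Mcm2, Rfc3 and Rpa1, with their nearest summits 1243, 1542, 1764, 2054, 2490 and 2767 bp from a start. Summits of Msh6 and Rpa1 lay after the start and the other 4 before it. Over the members with a listed strand, pair 2 summits numbered 17.6 per Mb in the 10000 bp upstream, 14.4 per Mb in the gene and 11.8 per Mb in the 10000 bp downstream. The same densities over all genes with a listed strand were 16.4, 15.1 and 17.0.

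**Figure D2:**
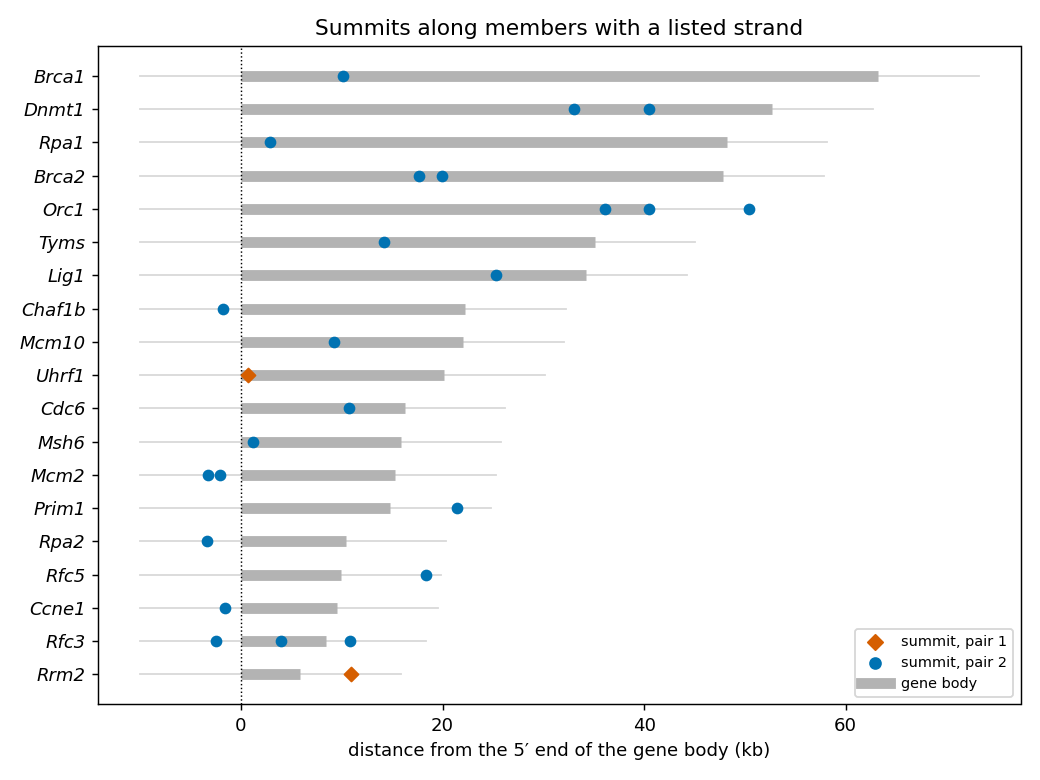
Position of each summit (x axis, kb from the 5′ end of the gene body) for the 19 members shorter than 70 kb that had a peak and a listed strand, ordered by gene length. Thick bars are gene bodies and thin lines the 10 kb on either side; circles are pair 2 summits and diamonds pair 1 summits, and only the Uhrf1 diamond lies within 1 kb of the dotted line at 0.

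The members are taken by role below, each group beside the count that genes of like length give. The groups are small and are not ranked. Among the 5 origin licensing genes, Orc1, Cdc6 and Gmnn had pair 2 peaks and Orc6 and Cdt1 had none, 3 genes beside 2.1 from like length. Orc1, an ATPase subunit of the origin recognition complex (chr4:108575705-108616030), had 3. The strongest, with a fold of 4.05 and 14 fragments (7.65 to 23.5), lay inside the gene and 4209 bp from its end. The others had folds of 2.97 and 3.31 downstream, the last inside the neighbouring gene Cc2d1b. Cdc6, which helps to load the helicase (chr11:98907709-98923942), had 1 peak inside the gene, 10267 bp after its start, with a fold of 5.14 and 18 fragments (10.7 to 28.4). Gmnn encodes geminin, the inhibitor of Cdt1 (chr13:24751845-24761937). Its peak had a fold of 5.33, but the summit lay 9890 bp outside the gene and within Armh2.

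Of the 6 genes Mcm2 to Mcm7, which encode the subunits of the ring, Mcm2 had pair 2 peaks and the others had none, 1 gene beside 2.59 from like length. Of Mcm10, Cdc45, Gins1 and Gins2, which help to activate it, Mcm10 and Gins2 had one. Over all 10 genes of the group the count was 3, beside 4.42. Mcm2 (chr6:88883474-88898780, minus strand) had 2 pair 2 peaks upstream of its start, at 2054 bp with a fold of 2.88 and at 3261 bp with a fold of 5.36. The stronger had a -log10 q of 8.96 and 21 fragments (13.0 to 32.1), and its summit was 210 bp from the next coding gene, Tpra1. In Mcm10 (chr2:4990724-5012791) the summit lay in the gene with a fold of 2.79 from 10 fragments (4.8 to 18.4). At Gins2 (chr8:120581266-120589075) the summit, with a fold of 3.78, was 10171 bp from the gene, so only the edge of the peak reached the window. Both Mcm2 summits were nearer to Tpra1 than to Mcm2.

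Of the 5 polymerase and primase genes, 4 had pair 2 peaks, Pold1, the catalytic subunit of polymerase delta, being the exception. Genes of like length gave 3.38. Prim2, the large subunit of primase (chr1:33453808-33669808), had 6 peaks, the most of any member, and the strongest of all. Its folds were 7.57, 6.22, 4.05, 3.78, 3.51 and 2.24. The first rested on 27 fragments (17.8 to 39.3) with a -log10 q of 15.7, at chr1:33490071-33490705. The weakest stood over a background of 7.05 fragments and lay 46 bp from the higher-coordinate end of the gene. At 216001 bp Prim2 is the second longest member, and its 2.54 peaks per 100 kb of window was below the 2.79 of Msh6, which had 1 peak. Of other genes of like length, 93.8% had a peak.

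Pola1, the catalytic subunit of polymerase alpha (chrX:93304766-93632387), was the longest member and had 2 pair 2 peaks, with folds of 4.87 and 2.70. Both lay inside the gene, the stronger 184915 bp from the start. Pole, the catalytic subunit of polymerase epsilon (chr5:110286319-110337468), also had 2. One had a fold of 4.87 inside the gene and the other a fold of 3.56, 335 bp outside it and within Pxmp2. Prim1, the small catalytic subunit of primase (chr10:128015215-128030030), had a peak with a fold of 4.60 whose summit lay in Naca, 6671 bp downstream. In this group the peaks inside genes belonged to Prim2, Pola1 and Pole, the 3 longest of its members.

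Of the clamp, clamp loader, strand joining and single-strand binding genes, 5 of 8 had pair 2 peaks, beside 3.41 from like length. Pcna, the sliding clamp, Rfc4, a loader subunit, and Fen1, the flap endonuclease, had none. Rfc3, another loader subunit (chr5:151642817-151651208, minus strand), had 3 peaks in a gene of 8392 bp, which gave it the highest density of all members at 10.6 peaks per 100 kb of window. Their folds were 5.14 upstream, 4.05 inside the gene and 2.97 downstream, with 18, 14 and 10 fragments. The strongest lay 2490 bp before the start. No other coding gene lay within 50000 bp of any of the 3 summits.

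Rpa1, the large subunit of the single-strand binding protein (chr11:75300259-75348454, minus strand), had 1 peak 2767 bp after its start, with a fold of 5.25 and 21 fragments (13.0 to 32.1). Rpa2, the middle subunit (chr4:132768360-132778746), had a fold of 2.77 at 3365 bp before its start. Lig1, the ligase that joins Okazaki fragments (chr7:13277175-13311426), had a fold of 4.32 within the gene. Rfc5, a further loader subunit (chr5:117379145-117389023) had a fold of 3.16, and its summit fell within Wsb2.

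Of the 4 genes of nucleotide supply, 1 had a pair 2 peak, beside 1.81 from like length. That gene was Tyms, thymidylate synthase (chr5:30038546-30073645), with a fold of 3.24 from 11 fragments (5.49 to 19.7) inside the gene. Rrm2, the small subunit of ribonucleotide reductase (chr12:24708254-24714146, plus strand), had the other pair 1 peak of the members. Its summit lay 5017 bp beyond the end of the gene, with a fold of 3.64, a -log10 q of 3.62 and 14 fragments (7.65 to 23.5), and the nearest pair 2 peak was 43.5 kb away. Rrm1, the large subunit, and Tk1, thymidine kinase, had no peak in either list.

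In the chromatin group, Chaf1b and Dnmt1 had pair 2 peaks and Chaf1a, the other listed subunit of the Chaf1b complex, had none. In pair 2 this made 2 of 4 genes, beside 2.06 from like length, and Uhrf1 had a peak in pair 1 only. Chaf1b, a subunit of the factor that places histones on new DNA (chr16:93883900-93906115), had a fold of 3.51 at 1764 bp before its start. Dnmt1, the maintenance DNA methyltransferase (chr9:20907206-20959888, minus strand), had 2 peaks with folds of 3.93 and 1.95. These rested on 26 and 17 fragments, over backgrounds of 5.88 and 8.23. The second was the lowest fold of any member peak, and its background the highest. Dnmt1 and its partner Uhrf1 thus had peaks in different lists, each over a raised background.

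Both E cyclins, the partners of Cdk2 at the start of S phase, had pair 2 peaks, 2 genes beside 0.793 from like length. Ccne1 (chr7:38097984-38107490, minus strand) had 1, at chr7:38108925-38110058, with a fold of 6.06, a -log10 q of 11.0 and 23 fragments (14.6 to 34.5). The summit lay 1542 bp before the start, and the nearest other coding gene was 74185 bp away. Ccne2 (chr4:11190433-11204779) had 3, with folds of 5.95 inside the gene, 4.05 at 6528 bp outside and 2.87 at 3497 bp outside it.

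All 3 genes of replication-linked repair had pair 2 peaks, beside 1.73 from like length. Every summit of these peaks lay inside the gene, a stricter condition to which the 1.73 does not apply. Msh6, a mismatch recognition subunit (chr17:87975050-87990892, plus strand), had the second highest fold of the members, 6.76, at chr17:87975961-87976485. Its summit rested on 24 fragments (15.4 to 35.7) and lay 1243 bp after the start, the closest of pair 2 among members with a listed start. Brca2, a mediator of homologous recombination (chr5:150522297-150570147), had folds of 6.22 and 3.24 at summits 17320 and 19670 bp after its start. Brca1, a scaffold of the same repair pathway (chr11:101488761-101551955), had a fold of 4.76 at 10110 bp after its start.

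**Figure D3:**
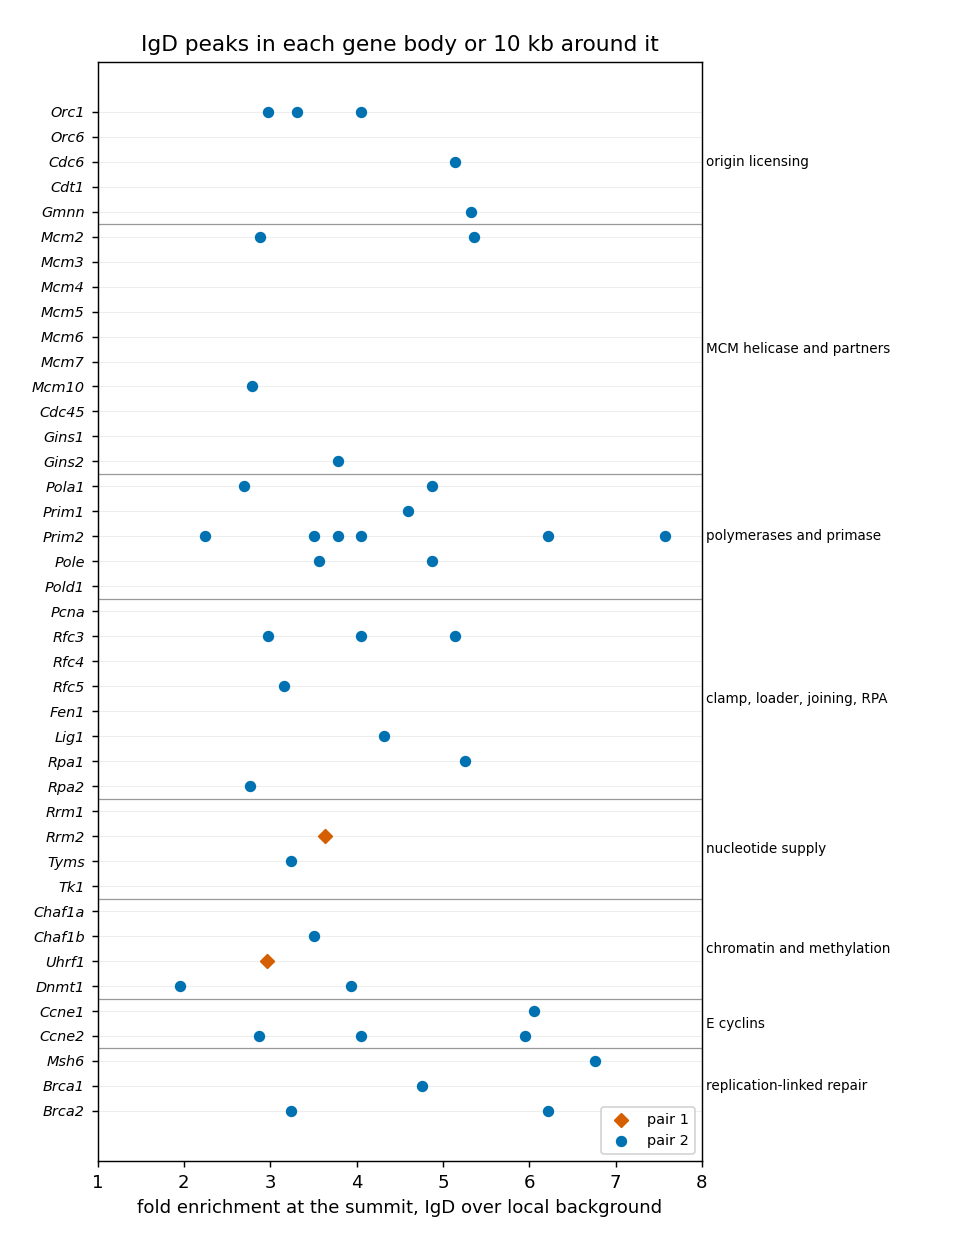
Fold enrichment of every peak (x axis) in the body or 10 kb around each of the 41 genes (y axis), grouped by role. Circles are pair 2 and diamonds pair 1; rows without a symbol are the 16 genes with no peak, and no row holds both symbols.

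As a set, the 39 pair 2 peaks at members were narrow and much like the rest of the list. Their folds ran from 1.95 to 7.57 with a median of 4.05, against 3.78 over all 19879 peaks near protein-coding genes. Widths ran from 525 to 1361 bp, and none reached 5000 bp, a width that 497 of the 19879 had. Summits had 9 to 27 fragments with a median of 16, against 14 near all protein-coding genes. All 39 had at least the 9 fragments of the weakest pair 1 summit at the commonest background, as did 19439 of the 19879. At the commonest background stood 23 of the 39, beside 70.1% of the whole list, and 4 stood over a background above 4 fragments, at Dnmt1, Prim2 and Rfc5. Inside the member itself lay 23 of the 39 summits, in 15 genes, and 5 lay inside another protein-coding gene. Among members with a listed strand, 15 summits lay in the gene, 6 upstream and 4 downstream. Over all genes with a listed strand these numbers were 12397, 2861 and 2968. At 9 members 2 or more peaks were found (22.0%), where 21.9% of all genes had as many.

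**Figure D4:**
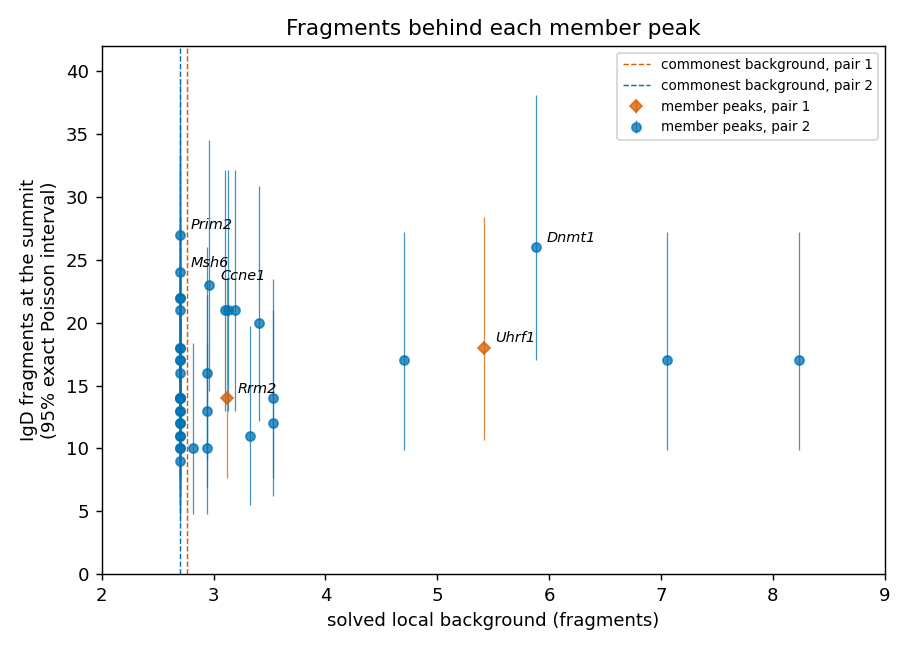
IgD fragments at the summit (y axis) against the solved local background in fragments (x axis) for each member peak, with exact Poisson intervals at 95%. Dashed lines mark the commonest background of each list; most pair 2 peaks sit on theirs, and the Uhrf1 peak of pair 1 stands at 5.42.

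Among the stronger peaks of pair 2, the members' share was higher than that of all genes. With a -log10 q of at least 5, 16 of 41 had a peak (39.0%, Wilson interval 25.7 to 54.3), where 27.8% of all genes and 25.4% of genes of like length did. The share of all genes lay within that interval, and the share of like length just below it. With pair 2 limited to its first 11375 peaks by q, the number in pair 1, the count was 15 of 41 (36.6%, Wilson interval 23.6 to 51.9), where 22.3% of all genes and 20.1% of genes of like length did. The 15 were Prim2, Ccne2, Pole, Brca2, Rfc3, Mcm2, Ccne1, Dnmt1, Prim1, Rpa1, Cdc6, Brca1, Gmnn, Msh6 and Pola1. The cut fell among peaks tied at a -log10 q of 6.02. Tied peaks that were also equal in p and fold were taken in order of chromosome name, and Prim1 entered the 15 by that order. In 3 of these, Gmnn, Mcm2 and Prim1, the strongest summit lay inside or within 1000 bp of another coding gene. Pair 1 had 0 of 41 at a -log10 q of at least 5, where 2.63% of all genes had a peak. These shares are descriptions, since the list was chosen with earlier results known.

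The 60 other genes of replication and the E2F programme stood below genes of like length in each count given here with a share of like length. Some of these differences were small, and no intervals are given for the 60. All 60 matched the table. In pair 2, 25 had a peak (41.7%), beside 51.3% of genes of like length, and in pair 1, 4 did (6.67%), beside 7.25%. With a -log10 q of at least 5 in pair 2 the count was 15 of 60 (25.0%), beside 26.5%. Among the first 11375 peaks of pair 2 it was 11 of 60 (18.3%), beside 20.8%. The strongest peaks of Rfc2 and Rbbp4 equalled that of Prim1 in q, p and fold, and were left out by chromosome name. Pold3, a subunit of polymerase delta, had a pair 2 fold of 5.59, among the 3 highest of these genes. The 4 with a pair 1 peak were Rfc1, the large subunit of the clamp loader (fold 3.99), Dbf4, the activator of the Cdc7 kinase (fold 3.46), Bard1, the partner of Brca1 (fold 3.66), and Mcmbp, an MCM binding protein, with 4 peaks of folds up to 4.53. Rfc1 and Dbf4 also had pair 2 peaks, but at other places: the pair 1 summits lay 8.86 and 11.3 kb from the nearest of them.

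For the 16 members without a peak, the nearest pair 2 peak lay between 10.5 kb away, at Pold1, and 92.5 kb away, at Mcm5. The median was 35.1 kb, against 37.5 kb over all protein-coding genes without a peak in either list. Pold1 was thus just outside the window, and Gins2 just inside it at 9.73 kb. For pair 1 the median distance from a member to the nearest peak was 255 kb, against 325 kb over all protein-coding genes. From the 39 pair 2 summits, the nearest pair 1 peak was 34.4 to 1730 kb away, at Rpa2 and Gmnn, with a median of 409 kb. This median is taken from summits and not from genes, and the same distance over all pair 2 summits is not given here.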

How the data were processed

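The authors deposited 1 narrowPeak list for each IgD library against its IgG control. Build mm10 and the tools MACS2, HISAT2 and ChIPseeker are named, without settings, per the submitters' processing notes. Each deposited row holds a fold (a ratio) and its -log10 p and -log10 q, all from the authors' peak caller. Both lists end just under a q of 0.05. Fragments k and background b were solved from fold = (k + 1) / (b + 1) and p = P(X > k), X being Poisson with mean b; whole k gave back every -log10 p within 0.001. Library totals were not used.

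Genes came from RefSeq GRCm38.p6, with starts and strands from its promoter table, which lists 34 of the 41 members. Exons were not assigned. Genes of scaffolds outside the chromosomes were left out. A peak counted at an overlap of at least 1 bp. Members and lists were chosen with earlier results of these data known. Every member with a peak is named, and of the 60 other genes those with a pair 1 peak and the 3 highest pair 2 folds, of which some are not reported here. Nothing in the labels ties either pair to mice of its own. Counting, solving and the comparison by length were checked on simulated data. The simulated folds and p-values came from the same formula that was solved. They could not check its assumptions, which are unscaled IgD fragments and 1 added to both counts. Alternatives changed the window, q, width, list length and length range. Software was scipy 1.17.1, pandas 2.3.3, matplotlib 3.10.9 and numpy 2.4.6 under Python 3.11.15.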

Additional observations from a re-analysis of the deposited data

How the results depend on the processing

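The count of members with a pair 2 peak was 23 and became 15 in the gene body alone and 15 with as many peaks as pair 1 has, where all genes had 33.8% and 22.3%. Pair 1, with 2 members, had 1 at a window of 3000 bp, 1 in the gene body alone, 7 at 50000 bp and 0 at a -log10 q of at least 5, where all genes had 7.1%, 6.28%, 15.9% and 2.63%. The count in both pairs, 0, became 5 at 50000 bp, where 14.0% of all genes had a peak in both. Without replicate 1 or replicate 2 it is the count of the remaining list, from 2 (pair 1 alone) to 23 (pair 2 alone). Under the other alternatives the counts stayed within 1.5 times. In pair 2 these included 18 of 41 at 3000 bp, 33 at 50000 bp and 16 at a -log10 q of at least 5. All genes had 39.0%, 81.5% and 27.8% there. Holding pair 2 to summits of at least 9 fragments, an alternative chosen after seeing the data, left 23, where all genes had 49.3%. The share of genes of like length moved from 48.1% to at most 49.2% in pair 2 and from 7.34% to at most 7.83% in pair 1. No paired analysis was possible because each pair gives 1 peak list and no values for its libraries. Summits of 9 to 27 fragments limit how well folds of members can be ordered. At the commonest background no region below 9 fragments in pair 1 or 8 in pair 2 was called. Over a higher background more were needed: the Dnmt1 peak with 17 fragments over 8.23 had a -log10 q of 1.34.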
